A study of Mus musculus with 11 samples.

Results

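The genes disallowed in mature beta cells are housekeeping and tissue genes that most cells use and that beta cells keep silent. A list of 29 such genes was matched by gene symbol, and all 29 were found among the 22329 genes with a promoter window in the ISL1 table. Of the 31479 regions listed for H3K27ac, 27 belonged to 16 of these genes, and of the 20086 regions listed for H3K27me3, 55 belonged to 21 of them. The method was CUT&Tag: an antibody brings a transposase to chromatin, and sequencing adapters are inserted beside the bound mark or factor. H3K27ac lies on active promoters and enhancers, and H3K27me3 is the mark that Polycomb places on silenced genes.

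The Isl1CKO cells came from Isl1loxP/loxP;Neurod1-cre mice at P9, in which Cre made under the Neurod1 promoter removes Isl1 from endocrine cells. The Control cells came from Isl1loxP/+;Neurod1-cre littermates at P9, which carry the same Cre and are heterozygous for the floxed allele. Both genotypes also carried the Ai14 tdTomato reporter on a C57BL/6 background, males and females were used, and each library came from about 20000 sorted tdTomato+ cells of 3 to 4 pooled pancreases. Each mark had 2 libraries of each genotype. ISL1 itself, the LIM-homeodomain factor that Isl1 encodes, was profiled in Control cells only, at E14.5 (2 libraries in 1 pooled column) and at P9 (1 library).

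Beta cells couple insulin release to blood glucose by burning glucose through glycolysis and the mitochondria. A lactate dehydrogenase and a plasma membrane carrier for lactate and pyruvate would let exercise-derived pyruvate trigger insulin release, and hexokinases of high affinity would let low glucose do so. These genes, together with others of growth factor, stromal and detoxifying function, are therefore kept off in mature beta cells, and Polycomb repression and DNA methylation are among the ways in which their silencing has been described.

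Counts within regions totalled 681047 and 1441926 for Isl1CKO and 1307049 and 1815511 for Control in H3K27ac, and 2276887 and 2260039 for Isl1CKO and 1202276 and 1750706 for Control in H3K27me3. For H3K27ac, Control replicate 2 was unlike the other libraries, at a correlation of 0.45 to 0.50 across regions against 0.68 to 0.72 among the remaining libraries, so the main H3K27ac results of the members are also given without it. The H3K27me3 libraries did not group by genotype. The 2 Isl1CKO libraries correlated at 0.71 and the 2 Control libraries at 0.75. Control replicate 1 correlated with the Isl1CKO libraries at 0.79 to 0.80, and Control replicate 2 at 0.65 to 0.66. Of 13 endocrine markers, 12 had an H3K27ac region, and their summed level was 1022 to 1141 CPM in Isl1CKO and 947 to 1179 CPM in Control, where CPM are counts scaled to a common library size. Of these 12, 2 stood at an unadjusted p below 0.05, both lower in Isl1CKO and neither called by edgeR. A distal intergenic region assigned to Scg2 had 0 and 7 counts in Isl1CKO and 25 and 66 in Control. The Pcsk1 promoter had 10 and 24 counts in Isl1CKO and 62 and 73 in Control. Among markers of other cell types, an H3K27ac region was listed for 3 of 9 mesenchymal, 2 of 8 acinar, 4 of 6 ductal, 2 of 5 endothelial and 1 of 5 immune genes. Of all genes, 44.4% had one. Of these markers, 1 of 2 acinar and 3 of 4 ductal ones measured lower in Isl1CKO, against 48.9% of all genes. The summed acinar level was 120 to 166 CPM in Isl1CKO and 178 to 214 CPM in Control. The ductal one was 77.8 to 120 CPM in Isl1CKO and 95.8 to 108 CPM in Control. An exon region assigned to the acinar Cpa1 had 12 and 30 counts in Isl1CKO and 124 and 112 in Control (log2 fold change -1.98, SE 0.52). An exon region of the ductal Krt19 had 2 and 4 counts in Isl1CKO and 19 and 31 in Control. Neither acinar region lay at a promoter, and regions carry the gene that the authors' annotation gave them. The part of acinar and ductal cells in the H3K27ac values of the disallowed genes was not tested. At the Isl1 promoter H3K27ac held 30 and 65 counts in Isl1CKO and 82 and 78 in Control, a log2 fold change of -0.21 (SE 0.48), while a region in intron 3 had 5 and 4 counts in Isl1CKO and 25 and 40 in Control, a log2 fold change of -2.06 (SE 1.03). These values do not check the deletion, because the exon it removes is not named.

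H3K27me3 was listed at most of the disallowed genes, and often together with H3K27ac. Of the 29 genes, 21 (72.4%) had at least 1 H3K27me3 region, against 19.2% of all 22329 genes. H3K27ac was listed at 16 of them (55.2%), against 44.4% of all genes. Both marks occurred together at 11 of the 29 (37.9%, against 8.82% of all genes), namely Acot7, Cat, Hk3, Igfbp4, Ndrg2, Rest, Slc16a1, Slc16a3, Smad3, Yap1 and Zfp36l1. H3K27me3 alone was listed at 10 (34.5%, against 10.4%), namely Cd302, Cxcl12, Hk1, Hk2, Ldha, Mgst1, Mylk, Nfib, Pdgfra and Pdgfrb. H3K27ac alone was listed at 5 (17.2%, against 35.6%), namely Dapp1, Oat, Parp3, Tgm2 and Tst, and neither mark at Arhgdib, Fcgrt and Itih5 (10.3%, against 45.2%). When only regions of at least 100 counts over the 4 libraries were kept, 2 genes had both marks (6.90%, against 3.58% of all genes), 15 had H3K27me3 only (51.7%, against 10.3%), 5 had H3K27ac only (17.2%, against 30.4%) and 7 had neither (24.1%, against 55.7%). Regions were called over the sorted cells as a whole, so the 2 marks on the same gene may lie in different cells, and in such bulk samples fewer cells of a type and less signal per cell cannot be told apart.

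Where both marks were listed, they mostly lay on the same bases. Of the 16 promoter regions of H3K27ac at disallowed genes, 8 (50%) overlapped an H3K27me3 region, against 10.2% of all 14993 such regions. Most of these 8 H3K27ac regions had few counts. Only that of Smad3 reached 100 counts over the 4 libraries, where the smallest total of any listed region was 50. At Acot7, Igfbp4, Ndrg2 and Rest the whole H3K27ac region (749, 618, 683 and 1323 bp) lay inside H3K27me3. The overlap covered 97.8% of the H3K27ac region at Slc16a1, 85.5% at Smad3, 80.6% at Yap1 and 66.2% at Slc16a3. At Hk3, Cat and Zfp36l1 the marks lay apart. Taking 1 region per gene, the members had a median width of 3293 bp for H3K27me3 and 1048.5 bp for H3K27ac. All promoter regions had medians of 1813 bp and 1200.0 bp. These sets are unlike, because the region with most counts was preferred for each member, while all promoter regions include further regions of the same gene. The medians therefore do not show that the members' regions were wider or narrower than others.

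**Figure D1:**
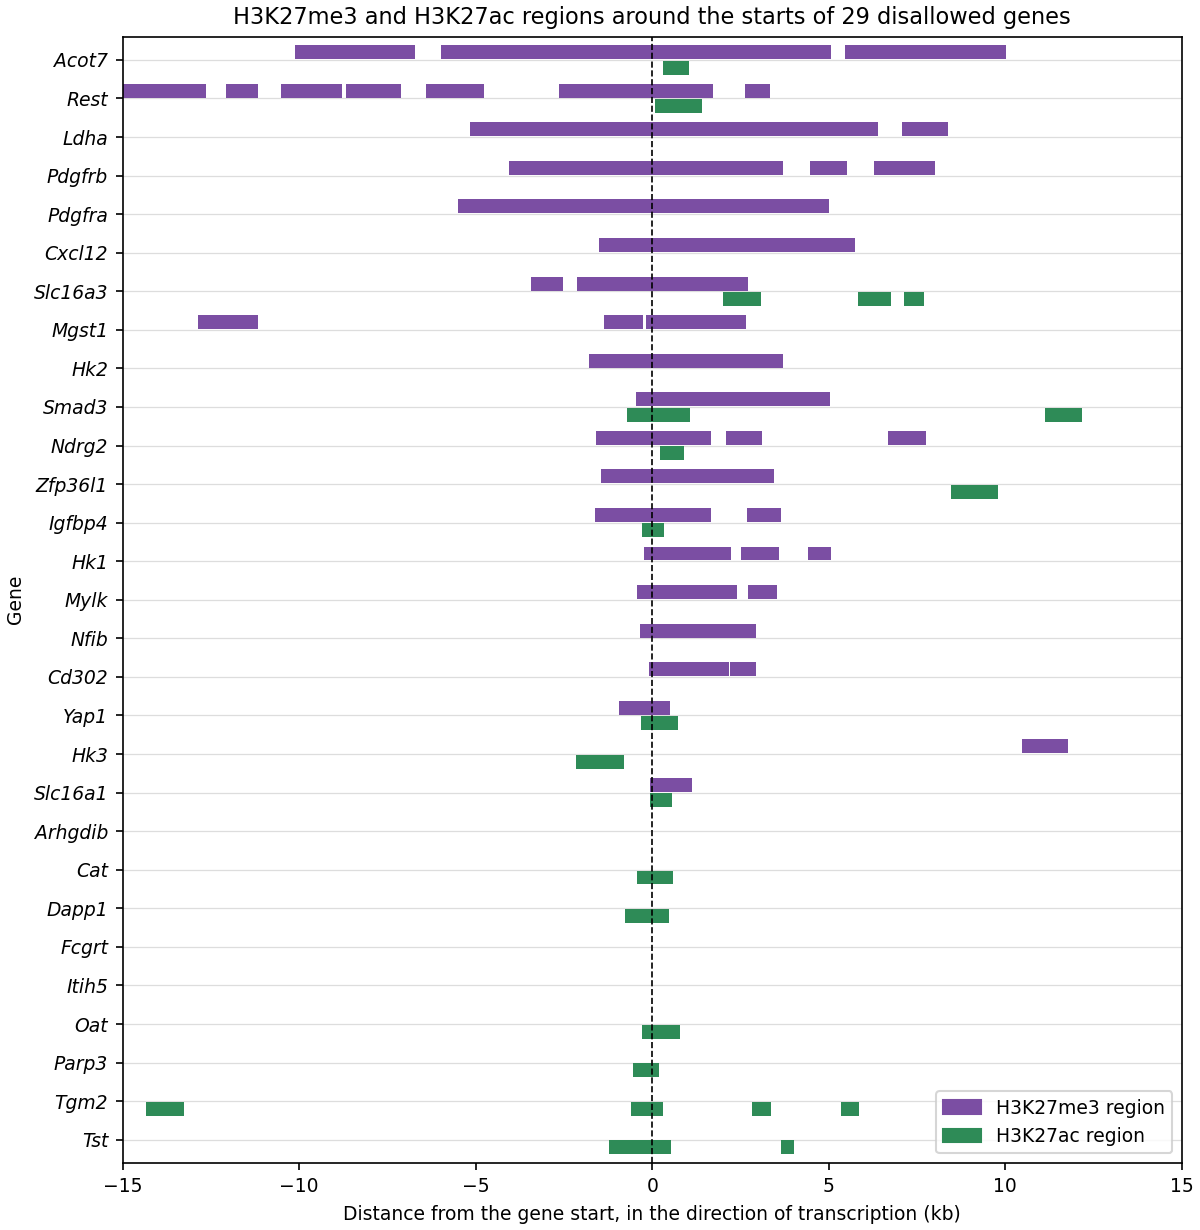
Position of every H3K27me3 region (purple, upper bar) and H3K27ac region (green, lower bar) within 15 kb of the starts of the 29 genes, in kb along the direction of transcription from the deposited start. Purple domains span the starts of 19 genes, green regions inside them are short, and 4 H3K27ac and 14 H3K27me3 regions of the members lie outside the view.

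The starts of the disallowed genes ranged from dense CpG to almost none. RefSeq promoter windows (GRCm38.p6, 250 bases before to 50 after the start) were given for 24 of the 29 genes, 31 windows in all, with none for Nfib, Pdgfrb, Rest, Tgm2 and Tst. The CpG content, as observed over expected CpG, had a median of 0.54 in the members' windows against 0.38 over 32851 windows of all genes. It was 0.72 in members with both marks at the promoter (0.66 in all such genes), 0.57 with H3K27me3 only (0.51), 0.41 with H3K27ac only (0.76) and 0.27 with neither (0.31). The 250 bases before the start are printed for the genes with an ISL1 value at both stages (Ldha, with its 2 annotated starts, Pdgfra and Cxcl12), for Slc16a1, which carried both marks on a dense CpG promoter, and for Itih5, which carried neither; CG is in capitals, and all are on the plus strand of GRCm38.p6.
Ldha, chr7:46845554-46845803: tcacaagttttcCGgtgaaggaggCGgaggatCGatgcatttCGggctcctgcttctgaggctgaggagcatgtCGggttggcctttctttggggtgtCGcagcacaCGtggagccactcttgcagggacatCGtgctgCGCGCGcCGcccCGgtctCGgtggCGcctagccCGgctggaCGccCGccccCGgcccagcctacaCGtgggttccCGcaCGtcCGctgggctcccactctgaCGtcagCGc
Ldha, second start, chr7:46846832-46847081: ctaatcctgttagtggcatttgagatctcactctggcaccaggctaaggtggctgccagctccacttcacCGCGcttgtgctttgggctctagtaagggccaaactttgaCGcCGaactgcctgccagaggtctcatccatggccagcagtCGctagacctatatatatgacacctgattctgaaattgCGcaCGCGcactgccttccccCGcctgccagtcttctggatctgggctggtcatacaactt
Pdgfra, chr5:75152001-75152250: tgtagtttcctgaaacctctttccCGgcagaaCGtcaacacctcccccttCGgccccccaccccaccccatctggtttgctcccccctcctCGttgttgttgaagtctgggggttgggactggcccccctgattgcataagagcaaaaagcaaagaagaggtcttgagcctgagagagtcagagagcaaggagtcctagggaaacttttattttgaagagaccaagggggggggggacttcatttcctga
Cxcl12, chr6:117168285-117168534: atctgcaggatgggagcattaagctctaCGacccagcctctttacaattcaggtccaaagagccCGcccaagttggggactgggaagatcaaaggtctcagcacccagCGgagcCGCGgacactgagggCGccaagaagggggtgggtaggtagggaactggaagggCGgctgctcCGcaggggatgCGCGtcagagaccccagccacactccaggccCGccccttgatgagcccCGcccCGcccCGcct
Slc16a1, chr3:104638414-104638663: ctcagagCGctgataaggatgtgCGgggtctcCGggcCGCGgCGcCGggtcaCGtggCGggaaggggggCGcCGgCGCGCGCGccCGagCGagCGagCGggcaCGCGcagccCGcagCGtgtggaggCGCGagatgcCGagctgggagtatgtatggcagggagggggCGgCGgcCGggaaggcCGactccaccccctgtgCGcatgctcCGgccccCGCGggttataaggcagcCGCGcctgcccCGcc
Itih5, chr2:10153293-10153542: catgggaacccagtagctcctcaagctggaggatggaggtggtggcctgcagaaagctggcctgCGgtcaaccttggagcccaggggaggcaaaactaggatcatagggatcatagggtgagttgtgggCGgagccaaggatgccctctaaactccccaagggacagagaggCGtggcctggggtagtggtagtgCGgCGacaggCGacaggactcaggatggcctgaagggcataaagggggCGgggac
These stretches hold 25 and 9 CG at the 2 Ldha starts, 4 at Pdgfra, 14 at Cxcl12, 37 at Slc16a1 and 7 at Itih5. Of the genes with wide H3K27me3 domains, Ldha thus had many CG before its first start and fewer before its second, and Pdgfra had few. CG under the domains themselves was not counted. Of sequences bound by LIM-homeodomain factors, searched on both strands, CTAATG occurred in 1 of the 31 windows (Fcgrt, against 7.36% of all windows), CTAATTG in 0 (against 1.98%), and the shorter TAAT, which the other two contain, in 11 (35.5%, against 58.0%). Set against windows with the same promoter marks, TAAT was in 50% with H3K27me3 only (against 48.1%), 40% with H3K27ac only (against 41.1%) and 60% with neither (against 61.3%). Only the 9 windows with both marks were lower, at 0% (against 32.2%).

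H3K27me3 levels spanned a wide range among the members. Per kb of region, which allows genes to be compared, the highest Control level was at Pdgfra, the alpha receptor for platelet-derived growth factor (PDGF), with 53.8 CPM per kb in Isl1CKO and 72.1 in Control. Next came Ldha, the lactate dehydrogenase subunit that favours lactate, with 54.5 CPM per kb in Isl1CKO and 67.2 in Control. Acot7, an acyl-CoA thioesterase, and Cxcl12, a chemokine of stromal cells, followed with 37.9 and 32.3 CPM per kb in Isl1CKO and 49.9 and 39.4 in Control. Ranked by Control level per kb among all H3K27me3 promoter regions, these 4 genes stood at percentiles 97.7, 96.8, 90.9 and 85.3. The lowest promoter levels were at Nfib, a transcription factor of the nuclear factor I family, with 15.9 CPM per kb in Isl1CKO and 6.09 in Control (percentile 9.98), and at Yap1, the coactivator held back by Hippo signalling, with 6.69 in Isl1CKO and 8.01 in Control (percentile 17.3). The Control libraries of Acot7 overlapped those of Cxcl12 on this scale, whereas those of Pdgfra and Ldha, the nearest above, did not overlap each other.

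**Figure D2:**
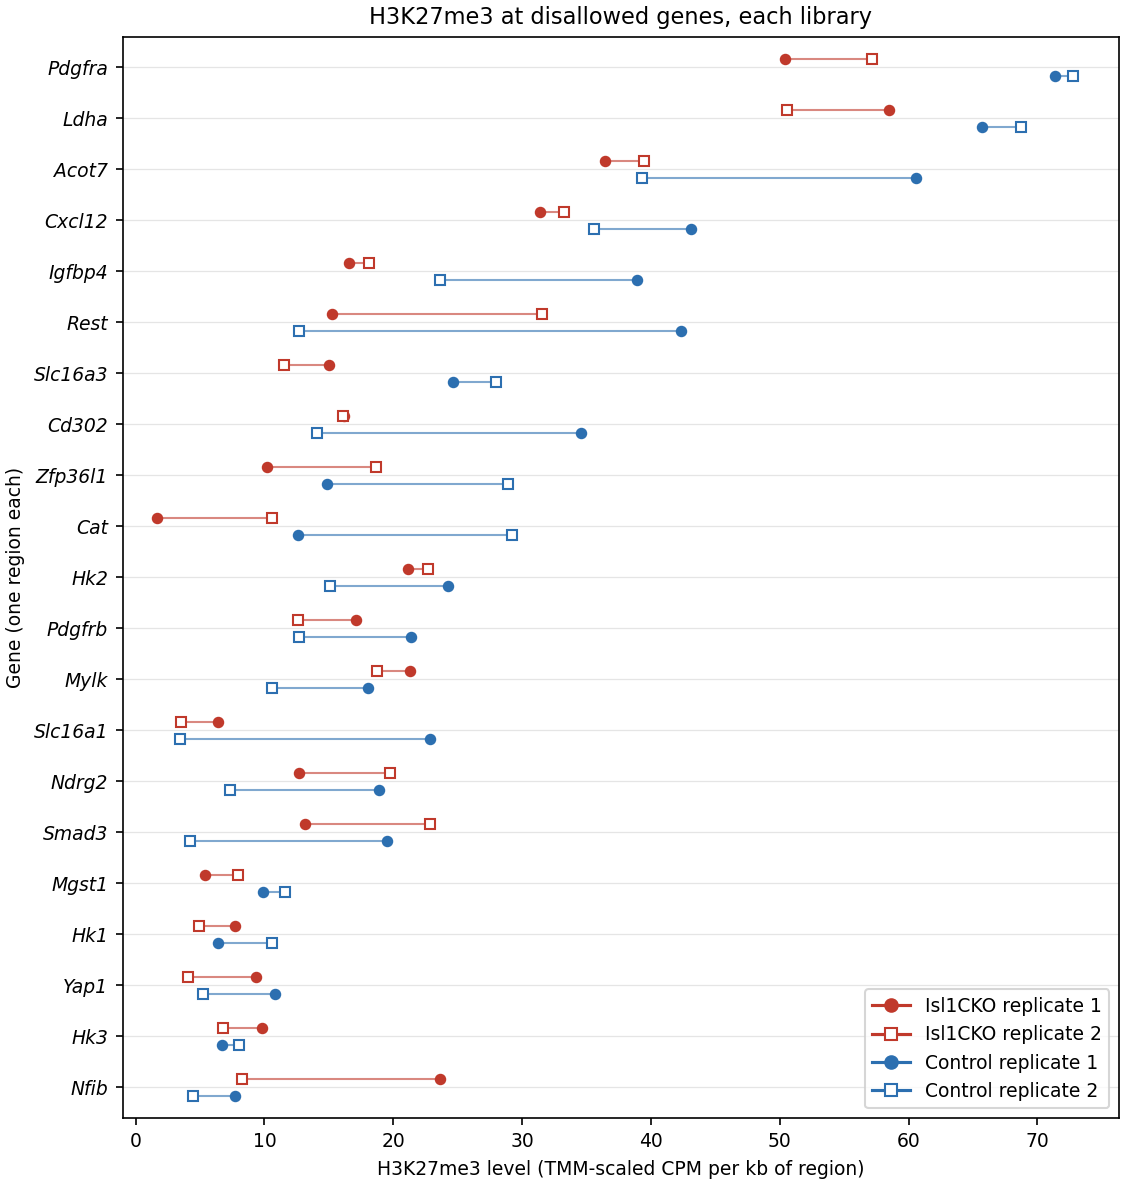
H3K27me3 level in each library at 1 region of each of the 21 disallowed genes with a region (TMM-scaled CPM per kb of region), Isl1CKO above Control, ordered by the mean Control level. Isl1CKO libraries lie left of both Control libraries at Pdgfra, Ldha, Cxcl12, Igfbp4, Slc16a3, Cat and Mgst1 and right of both at Mylk and Nfib.

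The first comparison asked whether loss of Isl1 went with a different H3K27me3 level at these genes. No member region was called by the edgeR quasi-likelihood test (0 of 55 at an adjusted p below 0.05, the smallest being 1.00), as 0% of all 19434 tested regions were. At an unadjusted p below 0.05 stood 841 of all regions (2.98% lower and 1.34% higher in Isl1CKO) and 3 of the members, of which 2 were lower (Pdgfra, Slc16a3) and 1 higher (a distal Rest region), and DESeq2 called 142 regions, among them Pdgfra and Slc16a3. Taking 1 region per gene, 15 of 21 members measured lower in Isl1CKO and 6 higher, against 55.4% lower among 7875 genes, and 19 of 21 did so when the libraries were scaled as the authors' deposited table implies. The median log2 fold change was -0.30 for the members and -0.08 for all genes, and it was 0.03 for the members without Control replicate 1. Non-overlapping libraries, with Isl1CKO the lower, were found at 7 of 21 members, against 22.1% of all genes, and with Isl1CKO the higher at 2, against 14.8%. In the authors' deposited table, 14 of 21 were lower at an adjusted p below 0.05, against 36.9% of all genes, and 1 was higher, against 5.42%. Broad H3K27me3 domains in general measured lower in Isl1CKO: of 1133 promoters with a domain of at least 5000 bp, 78.0% were lower, with a median of -0.18, and the 7 members of that width had a median of -0.28, against -0.50 for the 14 narrower ones.

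Of the genes of lactate production and export, Ldha and Slc16a3 had lower H3K27me3 readings in both Isl1CKO libraries, the more so at Slc16a3, which encodes the lactate exporter MCT4. Its promoter domain (chr11:120837176-120842019, 4844 bp) measured 72.7 and 55.8 CPM in the Isl1CKO libraries, against 119 and 136 CPM in the Control libraries. Both Isl1CKO libraries were well under both Control libraries, with a log2 fold change of -0.99 (SE 0.35). At Ldha (chr7:46485750-46497296, 11547 bp) the values were 675 and 583 CPM in Isl1CKO, against 759 and 794 CPM in Control. The groups did not overlap there either, and the log2 fold change was -0.30 (SE 0.14). That value is itself the members' median. Slc16a1, which encodes the pyruvate and lactate carrier MCT1, had little H3K27me3, with 7.66 and 4.23 CPM in Isl1CKO and 27.2 and 4.09 CPM in Control. Only Control replicate 1 stood high, so the log2 fold change of -1.37 (SE 1.20) was 0.52 without that library. Scaled as the authors' table implies, edgeR called Slc16a3 (adjusted p = 0.043) and Ldha (0.015), and the authors' deposited table itself gives log2 fold changes of -1.52 (adjusted p = 2.53e-05) at Slc16a3 and -0.85 (0.0137) at Ldha. A correction of each library on mean abundance, chosen after seeing the data, gave a smaller value at Ldha, -0.09, and -0.90 at Slc16a3.

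The hexokinases of high affinity gave no common direction. Hk2 had the most H3K27me3 of these genes, with 116 and 125 CPM in Isl1CKO and 133 and 83.0 CPM in Control over 5496 bp. The Isl1CKO libraries lay between the Control libraries, with a log2 fold change of 0.16 (SE 0.33), or -0.35 with the authors' implied scaling. Hk1 measured 19.1 and 12.3 CPM in Isl1CKO and 15.8 and 26.3 CPM in Control at its promoter, a log2 fold change of -0.43 (SE 0.77). Hk3, the hexokinase of blood cells, carried H3K27me3 only in its 3′ UTR, at 12.8 and 8.89 CPM in Isl1CKO and 8.77 and 10.5 CPM in Control. In these regions the groups overlapped at all 3 hexokinase genes. A further Hk1 region, of 654 bp in the 5′ UTR (chr10:62210629-62211282), had 10.2 and 15.2 CPM in Isl1CKO and 4.39 and 2.34 CPM in Control without overlap (log2 fold change 1.92, SE 1.31), and the authors' deposited table gives 1.49 (adjusted p = 0.0223).

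Among genes of growth factor signalling and stroma, Pdgfra was lower in both Isl1CKO libraries. Its domain (chr5:75307442-75317952, 10511 bp, overlapping 3 other annotated genes) measured 530.0 and 601 CPM in Isl1CKO, against 750.3 and 765 CPM in Control. The groups were clearly apart, with a log2 fold change of -0.42 (SE 0.14), and it was called with the authors' implied scaling (edgeR adjusted p = 0.009) and by DESeq2 (adjusted p = 0.030), but it was -0.21 with the correction on abundance. Its sister receptor Pdgfrb measured 133 and 98.2 CPM in Isl1CKO and 166 and 98.2 CPM in Control, which gives -0.19 (SE 0.34) on the log2 scale and 0.22 when Control replicate 1 is left out. Cxcl12 measured 228 and 242 CPM in Isl1CKO and 313 and 258 CPM in Control, and both Isl1CKO libraries were the lower ones, by a log2 fold change of -0.28 (SE 0.21). Igfbp4, a binding protein for insulin-like growth factors, had 54.4 and 59.7 CPM in Isl1CKO and 128 and 77.8 CPM in Control. The Isl1CKO libraries agreed closely and lay under both Control libraries, with a log2 fold change of -0.85 (SE 0.40), or -0.46 without Control replicate 1.

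Mylk, the myosin light chain kinase of smooth muscle, went the other way. Its promoter measured 60.0 and 52.9 CPM in Isl1CKO and 50.9 and 29.8 CPM in Control, a log2 fold change of 0.49 (SE 0.51). The largest of its 9 regions, a 10262 bp intron domain (chr16:34620195-34630456), measured 380.2 and 383 CPM in Isl1CKO and 328 and 227 CPM in Control, a log2 fold change of 0.46 (SE 0.21). In 7 of the 9 Mylk regions both Isl1CKO libraries were above both Control libraries, against 14.8% of all genes at 1 region each, which is not a share over regions. The sign depended on the scaling at some of these, since the promoter stood at -0.02 with the authors' implied scaling and the authors' deposited table gives -0.13 (adjusted p = 0.746) for the intron domain. For the other 5 of the 7 regions the authors' deposited table gives positive values, of 2.53 (adjusted p = 0.000368) at an intron region of 950 bp and between 0.16 and 0.41 at the rest. Counts were low at that region of 950 bp, with 49 and 22 in Isl1CKO and 5 and 0 in Control. Neighbouring regions of 1 gene share its chromatin and are not separate replicates.

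Among the transcriptional regulators, Nfib had the largest positive value, with 77.8 and 27.1 CPM in Isl1CKO and 25.4 and 14.6 CPM in Control. Isl1CKO replicate 1 carried most of it, so the log2 fold change of 1.40 (SE 0.66) was 0.44 without that library. Rest, the repressor of neuronal genes outside neurons and endocrine cells, measured 66.8 and 138 CPM in Isl1CKO and 185 and 55.5 CPM in Control at its promoter. The libraries of each genotype disagreed, and the log2 fold change of -0.22 (SE 0.51) became 0.87 with Control replicate 1 left out and 0.20 with Isl1CKO replicate 1 left out. A separate 4622 bp domain at -12634 bp from the Rest start (chr5:77396083-77400704) had 125 and 110.0 CPM in Isl1CKO, against 68.4 and 62.6 CPM in Control. Here both Isl1CKO libraries were higher, with a log2 fold change of 0.84 (SE 0.35), and 0.33 with the authors' implied scaling.

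The other regulators overlapped between genotypes in H3K27me3. Smad3, which carries transforming growth factor beta signals to the nucleus, measured 72.3 and 126 CPM in Isl1CKO and 107 and 23.4 CPM in Control, which gives 0.62 (SE 0.58) on the log2 scale and -0.12 when Control replicate 2 is left out. Zfp36l1, a protein that destabilises mRNAs, measured 49.8 and 91.4 CPM in Isl1CKO and 72.8 and 141 CPM in Control (log2 fold change -0.61, SE 0.44). At Yap1 the reading was 13.6 and 5.92 CPM in Isl1CKO and 15.8 and 7.60 CPM in Control.

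The remaining 5 genes with H3K27me3 included metabolic and detoxifying enzymes. The widest domain among these was that of Acot7, with 402 and 436 CPM in Isl1CKO and 669.5 and 434 CPM in Control over 11053 bp. Control replicate 1 alone was high, and the log2 fold change of -0.39 (SE 0.20) was -0.06 without it. Mgst1, a glutathione S-transferase of membranes, measured 15.3 and 22.4 CPM in Isl1CKO and 28.1 and 32.7 CPM in Control (log2 fold change -0.69, SE 0.66), with no overlap. Cat, the catalase that breaks down hydrogen peroxide, had a small intron region with 1.70 and 11.0 CPM in Isl1CKO and 13.2 and 30.4 CPM in Control (log2 fold change -1.78, SE 1.06), the first of these being near the level that 3 counts give (1.27 to 2.63 CPM). Cd302, a C-type lectin receptor, measured 37.0 and 36.8 CPM in Isl1CKO and 79.0 and 32.2 CPM in Control, and Ndrg2, a stress-responsive gene of the N-myc downregulated family, 41.3 and 64.3 CPM in Isl1CKO and 61.4 and 24.0 CPM in Control, with overlap at both. Of the 12 members whose genotypes overlapped, 9 turned sign when 1 library was left out.

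H3K27me3 was also read at marker genes of mesenchymal cells, which use Pdgfra, Pdgfrb, Cxcl12 and Mylk. Of 9 such markers 4 had an H3K27me3 region and none was called by edgeR. All 4 measured lower in Isl1CKO, against 55.4% of all genes, with a summed level of 1527 to 1535 CPM in the Isl1CKO libraries and 2117 to 2126 CPM in the Control libraries. Barx1 held most of that sum, at 1142 ± 74.0 CPM in Isl1CKO and 1550.0 ± 20.6 CPM in Control (SD, n = 2 each). Its domain spanned 19133 bp, and of all promoters with a domain of at least 5000 bp, 78.0% measured lower in Isl1CKO. The regions of Barx1 and Twist1, both mesenchymal transcription factors, stood at log2 fold changes of -0.44 (SE 0.11) and -0.64 (SE 0.20) without overlap, those of Col1a2 and Vim overlapped between genotypes, and Col1a1, Col3a1, Dcn, Lum and Acta2 had none. The median log2 fold change of the mesenchymal markers was -0.52. Among other markers with an H3K27me3 region, 3 of 5 endocrine, 1 of 3 acinar, 2 of 3 ductal and 1 of 1 endothelial genes measured lower. Their medians were -0.26, 0.01, -0.66 and -0.02. H3K27ac at the 3 mesenchymal markers with a region summed to 47.2 to 58.4 CPM in Isl1CKO and 40.4 to 43.3 CPM in Control. The part of other cells in the values of the disallowed genes was not tested.

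**Figure D3:**
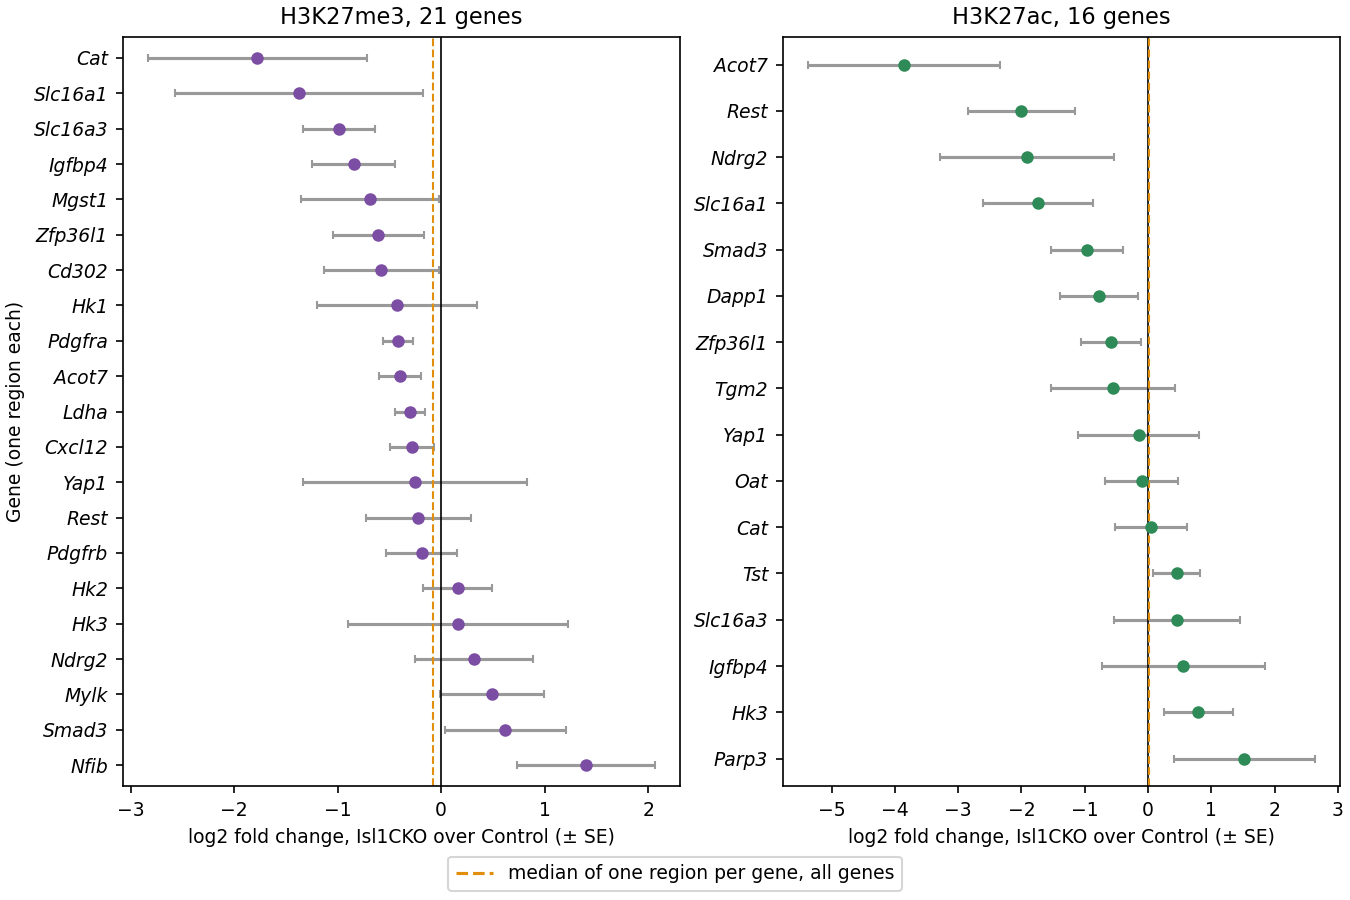
Log2 fold change of Isl1CKO over Control with its standard error at 1 region per gene, for H3K27me3 (left, 21 genes) and H3K27ac (right, 16 genes), with the median over all genes as a dashed line at -0.08 and 0.02. The members spread from -1.78 to 1.40 for H3K27me3 and from -3.86 to 1.52 for H3K27ac, and the narrowest intervals are those of the wide domains of Pdgfra and Ldha.

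The second comparison asked the same of the active mark. No member region was called for H3K27ac (0 of 26 tested, the smallest edgeR adjusted p being 0.851), as 0% of all 30036 regions were. At an unadjusted p below 0.05 stood 1751 of all regions (3.14% lower and 2.69% higher in Isl1CKO) and 2 of the members, both lower (Acot7 and Rest), and DESeq2 called 27 regions and none of the members. Taking 1 region per gene, 10 of 16 members measured lower and 6 higher, against 48.9% lower among 15900 genes, and the median log2 fold change was -0.35 for the members and 0.02 for all genes. Scaling as the authors' table implies adds 0.51 to every H3K27ac log2 fold change, and the members' median was then 0.16 with 8 of 16 lower, while every H3K27me3 value moves by -0.51. Without Control replicate 2 the median was -0.26, with 9 lower. Non-overlapping libraries, with Isl1CKO the lower, were found at 7 of 16 members, against 18.3% of all genes, and with Isl1CKO the higher at 3, against 19.2%. In the authors' deposited table, 3 of 16 were lower at an adjusted p below 0.05, against 4.98% of all genes, and 3 were higher, against 32.3%.

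The monocarboxylate carrier Slc16a1 had the highest H3K27ac level per kb of the disallowed genes in Control, after the distal region of Zfp36l1. Its promoter region (chr3:104545917-104546548, 632 bp) measured 13.5 and 3.47 CPM in Isl1CKO, against 27.5 and 25.4 CPM in Control. Both Isl1CKO libraries were lower, and they differed from each other by more than the Control libraries did. The log2 fold change was -1.73 (SE 0.87), -0.95 without Isl1CKO replicate 2 and -1.81 without Control replicate 2, and the authors' deposited table gives -1.42 (adjusted p = 0.0170). At Slc16a3 the region 2 kb into the gene measured 19.5 and 9.72 CPM in Isl1CKO and 12.2 and 8.66 CPM in Control (log2 fold change 0.46, SE 0.99), with overlap. Further into Slc16a3, a 5′ UTR region had 12.0 and 8.33 CPM in Isl1CKO and 22.1 and 20.6 CPM in Control, so the regions of this gene pointed in different directions. No H3K27ac region was listed at Ldha, Hk1 or Hk2. Hk3 was higher in both Isl1CKO libraries, at 55.4 and 39.6 CPM in Isl1CKO and 25.9 and 28.1 CPM in Control, a log2 fold change of 0.80 (SE 0.55) and 0.85 without Control replicate 2, and the authors' deposited table gives 1.41 (adjusted p = 0.00139).

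Taking 1 region per gene, Acot7 and Rest gave the lowest H3K27ac readings in Isl1CKO relative to Control. The Rest promoter region (chr5:77413423-77414745) had 7.49 and 6.25 CPM in Isl1CKO, against 38.9 and 16.2 CPM in Control. The Isl1CKO libraries were close together and under both Control libraries, with a log2 fold change of -2.0 (SE 0.85), -1.20 without Control replicate 1 and -2.50 without Control replicate 2. At Acot7 (chr4:152262891-152263639) there were 2 and 0 counts in Isl1CKO and 17 and 42 counts in Control, a ratio of 0.0508 with a 95% exact counting interval of 0.00601 to 0.192 that leaves out the spread between libraries. The fitted log2 fold change there was -3.86, but -3.40 without Control replicate 2, -2.52 without Isl1CKO replicate 2 and -1.88 with the correction on abundance, and without Isl1CKO replicate 1 only a library at 0 is left. Ndrg2 had 0 and 6.25 CPM in Isl1CKO and 13.7 and 13.5 CPM in Control (log2 fold change -1.92, SE 1.37), where a level of up to 1.62 to 4.49 CPM is allowed by a count of 0. Leaving out Control replicate 2 gave -1.89 at Ndrg2. Leaving out the Isl1CKO library at 0 gave -1.09, and leaving out the other Isl1CKO library leaves a count of 0 alone. In all 3 genes the H3K27ac region lies wholly inside H3K27me3.

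Smaller differences in the same direction were read at Smad3, Dapp1 and Zfp36l1, again with no overlap. Smad3 measured 16.5 and 31.9 CPM in Isl1CKO and 42.7 and 54.7 CPM in Control (log2 fold change -0.97, SE 0.57). Dapp1, an adaptor that binds phosphoinositides in B cells, measured 21.0 and 19.4 CPM in Isl1CKO and 32.8 and 36.3 CPM in Control (log2 fold change -0.78, SE 0.62). The distal Zfp36l1 region, 8461 bp from the start, measured 44.9 and 39.6 CPM in Isl1CKO and 50.3 and 75.2 CPM in Control (log2 fold change -0.58, SE 0.47), and -0.26 without Control replicate 2. Without Control replicate 2 the log2 fold change was -0.77 at Smad3 and -0.70 at Dapp1. With the authors' implied scaling the log2 fold change was -0.47 at Smad3, -0.27 at Dapp1 and -0.07 at Zfp36l1, and the authors' deposited table gives -0.48 (adjusted p = 0.314), -0.29 (0.597) and 0.01 (0.987) for these regions.

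**Figure D4:**
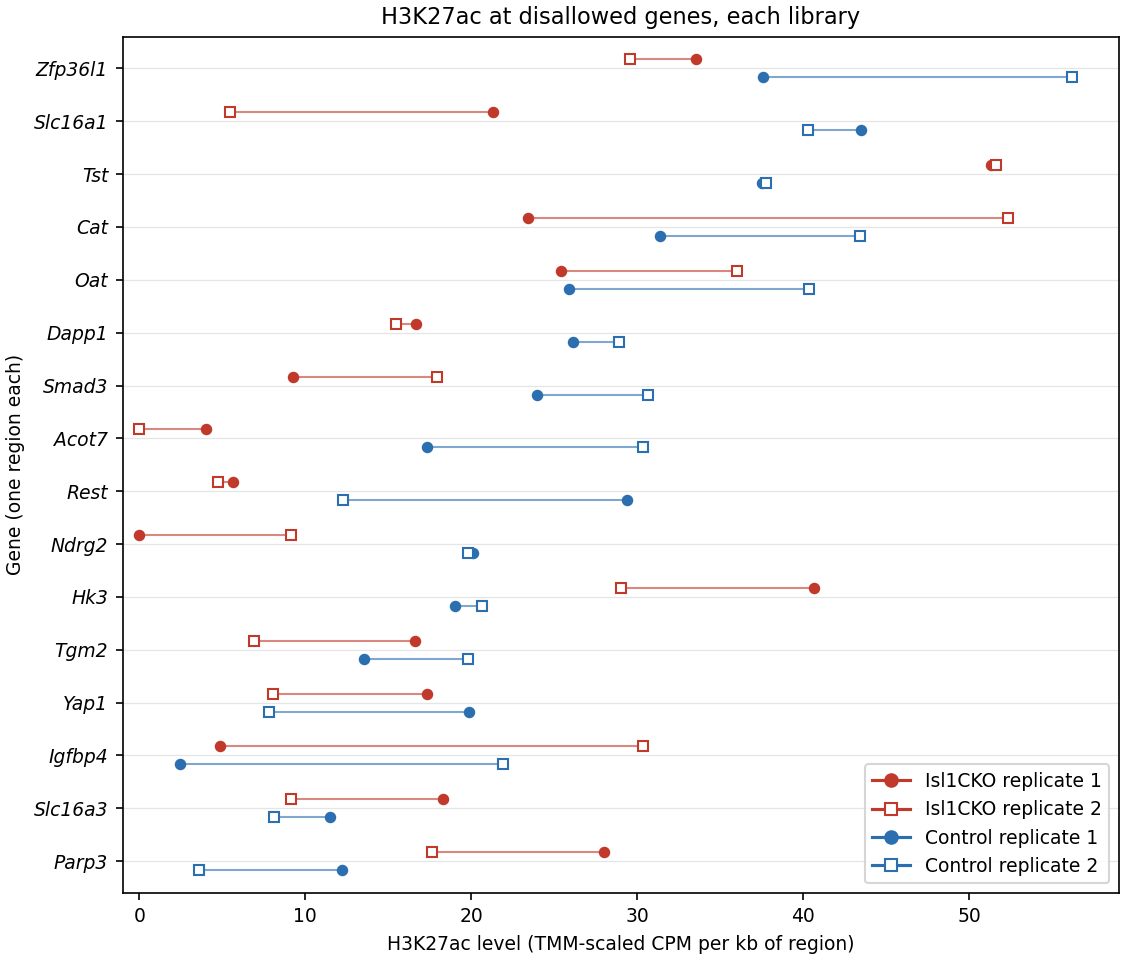
H3K27ac level in each library at 1 region of each of the 16 disallowed genes with a region (TMM-scaled CPM per kb of region), Isl1CKO above Control, ordered by the mean Control level. Isl1CKO libraries lie left of both Control libraries at Zfp36l1, Slc16a1, Dapp1, Smad3, Acot7, Rest and Ndrg2 and right of both at Tst, Hk3 and Parp3.

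Besides Hk3, H3K27ac was higher in both Isl1CKO libraries at Tst and Parp3. Tst, the mitochondrial thiosulfate sulfurtransferase, measured 89.8 and 90.3 CPM in Isl1CKO and 65.6 and 66.0 CPM in Control, with a log2 fold change of 0.45 (SE 0.38), and 0.46 without Control replicate 2. Parp3, a poly(ADP-ribose) polymerase of DNA repair, measured 21.0 and 13.2 CPM in Isl1CKO and 9.15 and 2.71 CPM in Control (log2 fold change 1.52, SE 1.11, and 0.87 without Control replicate 2). In the authors' annotation the Tst region also overlaps Mpst, the Parp3 region Rrp9 and the Oat region Fgfr2, so their signal cannot be given to 1 gene. The same holds for the Yap1 regions of both marks and the H3K27me3 domain of Zfp36l1, which overlap further annotated genes. The authors' deposited table gives 1.06 (adjusted p = 0.00719) for Tst and 2.04 (adjusted p = 0.000794) for Parp3.

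The last 5 genes with promoter H3K27ac overlapped between genotypes, and each turned sign when 1 library was left out. Cat measured 24.0 and 53.5 CPM in Isl1CKO and 32.0 and 44.4 CPM in Control, and Oat, the ornithine aminotransferase, 26.9 and 38.2 CPM in Isl1CKO and 27.5 and 42.8 CPM in Control. Yap1 measured 18.0 and 8.33 CPM in Isl1CKO and 20.6 and 8.12 CPM in Control, and Igfbp4 2.99 and 18.7 CPM in Isl1CKO and 1.53 and 13.5 CPM in Control. Tgm2, a transglutaminase that crosslinks proteins, measured 15.0 and 6.25 CPM in Isl1CKO and 12.2 and 17.9 CPM in Control at its promoter. An intron region of Tgm2 (chr2:157982505-157983016) had 0 counts in both Isl1CKO libraries and 1 and 60 in the Control libraries, which is at least 13.6-fold lower when Isl1CKO is set to the floor of 3 counts for the group. Nearly all of that signal lay in Control replicate 2, the library that stood apart, and the region was too low to be tested with all libraries.

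At the genes with both marks at the promoter the 2 marks can be set side by side. At Rest, Slc16a1 and Acot7 H3K27ac was lower in both Isl1CKO libraries, while H3K27me3 overlapped between the genotypes. Igfbp4 and Slc16a3 showed the reverse, with H3K27me3 lower in both Isl1CKO libraries and promoter H3K27ac overlapping. At Smad3 the log2 fold change was -0.97 for H3K27ac and 0.62 for H3K27me3, and at Ndrg2 -1.92 and 0.32, though H3K27me3 overlapped at both. Arhgdib, a GTPase regulator of blood cells, Fcgrt, the neonatal Fc receptor, and Itih5, a hyaluronan-binding inhibitor chain, had no listed region of either mark and so no value.

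The third question was where ISL1 itself lies at these genes in Control cells. The deposited ISL1 values are whole numbers per promoter window, whose unit is not stated, with 1 column per stage and thus no spread and no test. At E14.5, 18 of 29 disallowed genes (62.1%) had a value of at least 1, against 37.7% of 22329 genes. At P9, 3 of 29 (10.3%) did, against 8.86% of all genes. The same 3 genes, Cxcl12 (5 at E14.5 and 1 at P9), Pdgfra (4 and 1) and Ldha (2 and 1), were positive at both stages, and they are the genes whose H3K27me3 level per kb was, with Acot7, the highest of the list. Values of 2 at E14.5 and 0 at P9 were given for Parp3, Rest, Smad3 and Zfp36l1. Values of 1 at E14.5 and 0 at P9 were given for Dapp1, Hk1, Hk2, Mgst1, Ndrg2, Oat, Slc16a1, Slc16a3, Tgm2, Tst and Yap1, and the other 11 genes were at 0 at both stages. These are low values in a table whose maximum was 133 at E14.5 and 8 at P9, and 2 members (6.90%) reached 4 at E14.5, against 4.29% of all genes.

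ISL1 values went with the marks at the promoter among all genes, so the members were also set against genes of the same kind. With H3K27me3 only, 7 of 11 members (63.6%) were positive at E14.5, against 49.7% of 1959 genes, and 3 of 11 (27.3%) at P9, against 17.0%. At P9 members of the other classes were all at 0, being 0 of 8 with both marks, against 18.7% of all such genes, 0 of 7 with H3K27ac only, against 9.95%, and 0 of 3 with neither, against 5.85%. With both marks 6 of 8 members (75.0%) were positive at E14.5, against 67.0% of 1133 genes. With H3K27ac only 5 of 7 (71.4%) were, against 61.1% of 7477 genes, and with neither mark 0 of 3 were, against 18.1% of 11760 genes.

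**Figure D5:**
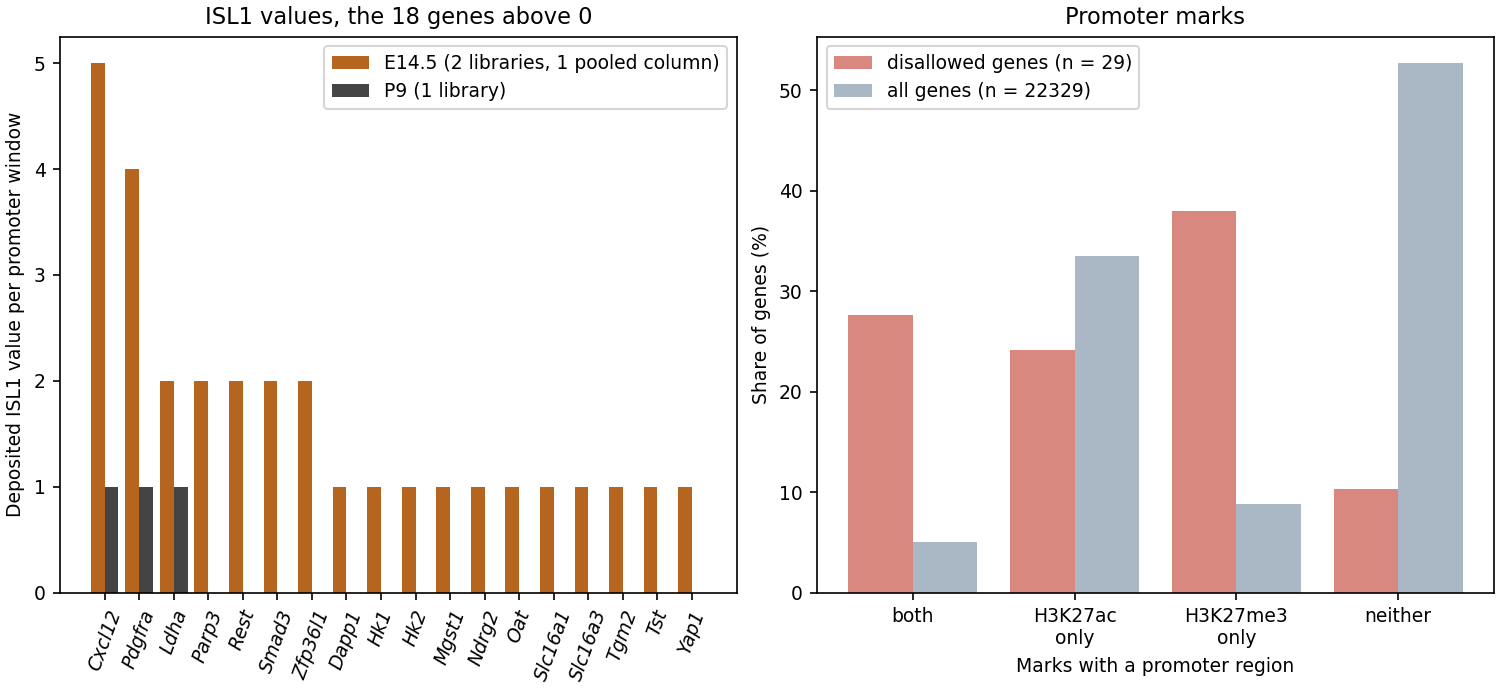
Left, deposited ISL1 value per promoter window (unit not stated) for the 18 disallowed genes above 0, at E14.5 (pooled from 2 libraries) and P9 (1 library). Right, share in percent of the 29 disallowed genes and of all 22329 genes with a promoter region of both marks, of H3K27ac only, of H3K27me3 only or of neither; the disallowed genes exceed all genes in both classes with H3K27me3.

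The partners of these genes in the same pathways were read for comparison, and no region among them was called by edgeR for either mark. Of all genes, 44.4% had an H3K27ac region and 19.2% an H3K27me3 region. At 1 region per gene, 48.9% of all genes measured lower in Isl1CKO for H3K27ac and 55.4% for H3K27me3. The counts by list were not tested against these shares. Of 19 other genes of lactate and pyruvate handling 16 had H3K27ac, 4 lower and 12 higher in Isl1CKO (median log2 fold change 0.20), and 6 had H3K27me3, 3 lower and 3 higher. Pdk4, a kinase that shuts off pyruvate dehydrogenase, had 40 and 48 H3K27ac counts in Isl1CKO and 10 and 36 in Control at its promoter, or 46.6 ± 18.8 CPM in Isl1CKO and 13.6 ± 8.38 CPM in Control (SD, n = 2 each; log2 fold change 1.74, SE 0.67). Of 17 genes of glucose phosphorylation and glycolysis, 12 had H3K27ac, 10 lower and 2 higher (median -0.39, a size below the shift of 0.51 between scalings), and 3 had H3K27me3. These lists contain the forms of the pathway that beta cells do use.

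Of 6 PDGF ligands and CXCL12 receptors, 4 had H3K27me3, 3 lower and 1 higher in Isl1CKO (median -0.43), and 2 had H3K27ac. The ligand gene Pdgfc had 10 and 13 H3K27me3 counts in Isl1CKO and 24 and 82 in Control (log2 fold change -2.81, SE 0.83), with no overlap after scaling. Pdgfb, another ligand, measured 87.4 ± 9.87 CPM in Isl1CKO and 141 ± 7.60 CPM in Control (SD, n = 2 each; log2 fold change -0.69, SE 0.31). Of 16 Hippo and transforming growth factor beta partners of Yap1 and Smad3, 11 had H3K27ac (4 lower, 7 higher, median 0.07) and 8 had H3K27me3 (4 lower, 4 higher, median -0.01). Of 7 corepressors of REST, 4 had H3K27ac (1 lower, 3 higher, median 0.34) and 1 had H3K27me3. Beside these counts, 48.9% of all genes measured lower for H3K27ac and 55.4% for H3K27me3.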

How the data were processed

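Per the submitters' processing notes, the build was GRCm39 and the tools were edgeR 4.0.16, ChIPseeker 1.38.0, MACS2 2.2.6, Picard 2.27.4 and Bowtie2 2.3.5.1. The authors deposited raw counts per region and library for each histone mark, with their own log2 fold change and log2 abundance, a likelihood ratio score, and p-values before and after adjustment. For ISL1 the authors deposited other values, whole numbers per promoter window in a unit that the file headers do not state. The smallest total of a deposited region was 50 counts.

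The chromosome names of both histone tables followed alphabetical order and were relabelled: as written, 7.48% of H3K27ac and 9.25% of H3K27me3 regions matched the chromosome of their gene in the ISL1 table, and 100% matched afterwards. Repeated rows (108 and 90) were dropped. Counts of all regions were fitted with edgeR 4.0.16 in R 4.3.3 (filterByExpr, TMM, quasi-likelihood test, 2 against 2 libraries, no covariate), which left 30036 H3K27ac and 19434 H3K27me3 regions, with Benjamini-Hochberg adjustment over all of these and calls at an adjusted p below 0.05. The p-values measure the spread between pools of animals. CPM are TMM-scaled over counts in regions, log2 fold changes set Isl1CKO over Control, and SE is the fit's standard error. The region taken for a gene is the promoter region with most counts on average, or otherwise its region with most counts. A member's further regions were named at an unadjusted p below 0.05, and others named were chosen after their values were seen. Intervals and floors (3 counts) cover counting error only. The fit was tested on simulated data with regions changed by known amounts. At a log2 fold change of -1.5 it called 0 of 41 H3K27ac and 0 of 33 H3K27me3 regions. At -3.0 it called 4 of 36 and 6 of 40. At 1.5 it called 8 of 48 and 1 of 50, and at 3.0 it called 40 of 50 and 21 of 50. Most simulated decreases were thus missed, and 0 calls does not show equal levels. Promoter sequences are from RefSeq (GRCm38.p6), and no coordinate was converted between builds. DESeq2 1.42.0, other scalings, no filter, a replicate block and libraries left out were tried as alternatives. The members, gene lists and tests were chosen with earlier results of these data known.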

Additional observations from a re-analysis of the deposited data

How the results depend on the processing

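The count of called regions was 0 in edgeR with TMM and depended on the tool and on single libraries. DESeq2 called 27 H3K27ac and 142 H3K27me3 regions, and the scaling that the authors' table implies gave 0 H3K27ac and 485 H3K27me3 regions. Leaving out 1 library gave 0 to 1936 H3K27ac regions (1936 without Control replicate 1, 15 without Control replicate 2) and 0 to 11 H3K27me3 regions (11 without Control replicate 1). Of the disallowed genes' H3K27me3 regions, 4 were called with the implied scaling (Acot7, Ldha, Pdgfra, Slc16a3) and 2 by DESeq2 (Pdgfra, Slc16a3). Of their H3K27ac regions, 0 to 1 were called with a library left out, the 1 being the Tgm2 intron without Control replicate 1. The members' median log2 fold change became 0.16 for H3K27ac with the implied scaling, and with a library left out it lay between -0.61 and -0.26 for H3K27ac and between -0.43 and 0.031 for H3K27me3. At 100 counts or more, 2 genes had both marks and 7 neither, and at an ISL1 value of at least 10 there were 0 genes at E14.5 and 0 at P9.

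The replicate numbers did not pair the samples (correlation of deviations 0.050 for H3K27ac and -0.014 for H3K27me3), and the fit with the replicate block called 0 regions and turned 1 of 38 single-region values, Cat H3K27ac, to -0.043. A correction for abundance, chosen after seeing the data, turned Cat H3K27ac to -0.063 and brought H3K27me3 nearer to 0 at Ldha (-0.091), Pdgfra (-0.21), Acot7 (-0.20), Cxcl12 (-0.12), Pdgfrb (-0.070) and Rest (-0.098), and H3K27ac at Acot7 (-1.88), Ndrg2 (-1.03) and Tst (0.27), while H3K27ac at Igfbp4 (1.62) and Oat (-0.20) and H3K27me3 at Hk2 (0.27) moved away from 0. The implied scaling turned H3K27ac at Oat (0.41) and Yap1 (0.36) and H3K27me3 at Hk2 (-0.35), Hk3 (-0.34), Mylk (-0.015) and Ndrg2 (-0.19). Summing a gene's regions turned H3K27ac at Slc16a3 (-0.57) and H3K27me3 at Hk1 (0.086) and Rest (0.23). DESeq2, DESeq2 size factors, library totals and no filter turned none of the 38.

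With a library left out, H3K27ac ranged from -0.65 to 0.51 at Cat, -1.29 to 2.83 at Igfbp4, -0.36 to 0.27 at Oat, -0.077 to 0.92 at Slc16a3, -1.23 to 0.013 at Tgm2 and -0.76 to 0.70 at Yap1. H3K27me3 ranged from -1.11 to 0.19 at Cd302, -0.16 to 0.53 at Hk2, -0.13 to 0.39 at Hk3, -0.23 to 1.13 at Ndrg2, -0.53 to 0.22 at Pdgfrb, -0.87 to 0.87 at Rest, -2.19 to 0.52 at Slc16a1, -0.12 to 2.07 at Smad3 and -0.97 to 0.35 at Yap1. The cause of these changes was not tested. With 2 libraries per genotype and down to 681047 counts in a library, the standard error was 0.14 at Pdgfra H3K27me3 and 1.37 at Ndrg2 H3K27ac.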
